A study of Mus musculus with 16 samples.

Results

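Testes of newborn mice in which *Lrh1* had been deleted in germ cells were compared with testes of controls of the same age. *Lrh1* (*Nr5a2*) encodes LRH1, an orphan nuclear receptor, and *Nanos3-Cre* drives recombination in fetal germ cells. The measure was FPKM, a fragment count scaled to transcript length and library size, of which the authors' mean of each group was used, at postnatal day 1 (P1). Each mean stands for 4 samples: the mutants were *Lrh1* flox/-; *Nanos3-Cre*, and the controls were *Lrh1* flox/- with no Cre, so that both groups carried 1 null allele in every cell. The mutants (*Nanos3-Cre* testes below) and the controls were of mixed 129Sv and C57Bl/6J background, and RNA came from the whole gonad, in which germ cells are mixed with somatic cells. A second experiment of the same series, with *Lrh1* deleted by *Dhh-Cre* in Sertoli cells and examined at P3 against flox/flox controls without Cre (4 samples in each group), is given only beside the P1 values. Of 35983 genes in the table, 16121 had a mean over the 2 P1 groups of at least 0.5 FPKM and were kept. For each, the log2 ratio of *Nanos3-Cre* over control was taken after 0.1 FPKM had been added to both means, which understates the difference of genes at low levels. Values per sample were not analysed here, so no mean below has an SD, no difference was tested here, and "higher" or "lower" compares one group mean with another.

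The neonatal testis holds germ cells of one kind, the gonocytes or prospermatogonia, inside cords formed by Sertoli cells. Around birth these cells leave a quiescent state, move to the edge of the cord and become spermatogonia, some of which become the stem cells of the adult. They keep retrotransposons silent through piRNAs, small RNAs bound by PIWI proteins, and many genes used in male germ cells lie on the X chromosome. Around the cords are smooth muscle-like peritubular cells, Leydig cells, which make androgens, vessels and macrophages. The rete testis and the efferent ducts, which come from the mesonephros, join the cords to the epididymis. LRH1 binds DNA as a monomer at an extended nuclear receptor motif that its close relative SF1 (*Nr5a1*) also binds.

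The deleted gene itself was at a low level. *Nr5a2* (chr1:136842571-136960448, minus strand, GRCm38) had a mean of 0.491 FPKM in *Nanos3-Cre* testes, against 0.764 FPKM in controls (log2 ratio -0.55). In the P3 experiment it had 0.609 FPKM in *Dhh-Cre* testes and 1.15 FPKM in controls. The value is for the whole gene, and it pools germ cells with cells that keep a functional floxed allele. *Nr5a1*, the gene of SF1, which Sertoli and Leydig cells use, had 68.8 FPKM in *Nanos3-Cre* testes and 58.7 FPKM in controls (log2 ratio 0.23). Of 16 kept genes for LRH1, SF1 and their repressors and coregulators, 10 were higher and 6 lower, and none was past 1.5-fold. Among them *Nr0b1* (DAX1, a repressor of SF1) had 14.2 FPKM in *Nanos3-Cre* testes and 12.7 FPKM in controls, and *Nr0b2* (SHP, a repressor of LRH1) had 5.54 FPKM in *Nanos3-Cre* testes and 5.22 FPKM in controls. Of 9 kept genes from a list of reported LRH1 targets, 1 was 1.5-fold lower (11.1%, against 3.46% of all kept genes) and none was 1.5-fold higher. The lower gene was *Pou5f1*, the pluripotency factor OCT4, with 1.251 FPKM in *Nanos3-Cre* testes and 1.96 FPKM in controls (log2 ratio -0.61). *Pou5f1* is also a member of the germ cell identity list described below. *Cyp11a1* and *Star*, which catalyse and supply the first step of steroid synthesis, had log2 ratios of 0.12 and 0.16.

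Across all kept genes the 2 groups were close. The median log2 ratio was 0.02, with quartiles at -0.10 and 0.15. At least 1.5-fold higher in *Nanos3-Cre* testes were 511 genes (3.17%), and 557 (3.46%) were at least 1.5-fold lower. At 2-fold the counts were 186 (1.15%) and 224 (1.39%). Some genes passed the minimum only through the group in which they were high, so that a difference was fixed by the minimum: 173 of the 511 had a control mean under 0.5 FPKM, and 199 of the 557 had a *Nanos3-Cre* mean under it. For comparison, in the P3 experiment 2108 of 16923 kept genes (12.5%) were 1.5-fold higher in *Dhh-Cre* testes and 1412 (8.34%) were 1.5-fold lower. The P1 counts depended on the level of the genes. Between 0.5 and 1 FPKM, 9.99% of genes were 1.5-fold higher and 11.2% were lower, whereas at 5 to 20 FPKM the shares were 0.662% and 0.572%. Genes of small RNAs made 270 of the 1068 differences past 1.5-fold although they are 531 of the kept genes, that is, 50.8% of them passed the fold in one direction or the other. Such transcripts are shorter than a sequenced fragment and lack the poly(A) tail used to select mRNA, so their FPKM are uncertain. Among 13075 protein-coding genes, 256 (1.96%) were 1.5-fold higher and 215 (1.64%) were 1.5-fold lower. At P1 the summed FPKM was 369828 in *Nanos3-Cre* testes and 382861 in controls. One sample of each P1 group came from another library series and used 400 ng of RNA, the other 3 of each group 500 ng. The split was the same in both groups, and group means do not allow it to be examined.

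**Figure D1:**
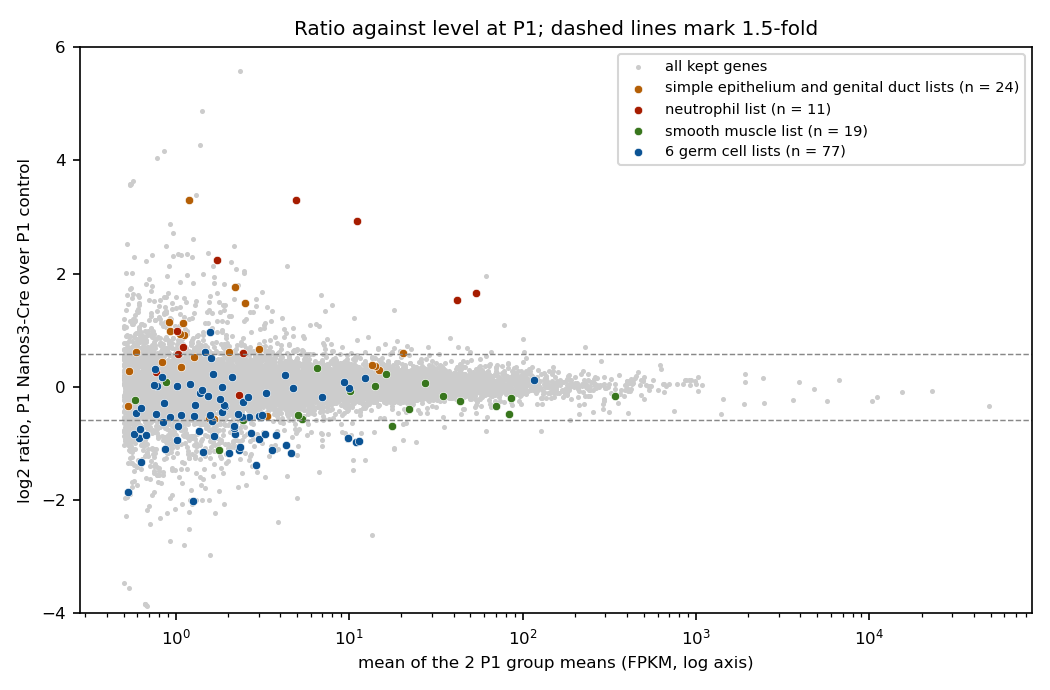
Log2 ratio of P1 Nanos3-Cre over P1 control against the mean of the 2 group means (FPKM, log axis), 1 point a gene for 16121 kept genes, with 4 sets of listed genes coloured. Most points of the germ cell lists (blue) lie under 0 and most of the neutrophil (red) and epithelial (orange) lists lie above it, and the grey cloud is wider at low levels.

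Germ cell genes were lower as a body in *Nanos3-Cre* testes. In 6 lists (germ cell identity, undifferentiated spermatogonia, spermatogonial differentiation, piRNA pathway, meiosis and X-linked spermatogonial genes) 77 genes were kept. Of these, 62 were lower in *Nanos3-Cre* testes and 15 higher, 33 were at least 1.5-fold lower (42.9%, against 3.46% of all kept genes) and 2 were 1.5-fold higher (2.60%, against 3.17%). Of the 33, 8 had a *Nanos3-Cre* mean under 0.5 FPKM. The median log2 ratio of the 77 was -0.51, against 0.02 for all kept genes. In the 34 members at 2 FPKM or more, where ratios of all genes spread less, the median was -0.62. Of the 34, 17 were 1.5-fold lower (50%, against 1.08% of all genes at that minimum) and none was 1.5-fold higher. These are differences of group means. The paper, which used DESeq2, reported only *Nxf2* as significantly lower at P1, and only *Slc25a42*, *Chodl* and *Cbln1* as higher. In whole testes a smaller number of germ cells and less of these RNAs in each germ cell cannot be told apart.

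Among the 6 germ cell lists the lowest medians were those of the X-linked and the piRNA lists. Of 14 kept piRNA and transposon silencing genes, 12 were lower (median -0.72). Of the 14, 8 were 1.5-fold lower (57.1%, against 3.46% of all kept genes), 2 of them with a *Nanos3-Cre* mean under 0.5 FPKM. *Mael*, whose product works in piRNA granules, had 7.36 FPKM in *Nanos3-Cre* testes and 14.6 FPKM in controls (log2 ratio -0.98). *Tex15*, a gene needed for transposon silencing in fetal germ cells, had 7.71 FPKM in *Nanos3-Cre* testes and 15.1 FPKM in controls (-0.96). *Fkbp6*, a co-chaperone of piRNA loading, had 2.32 FPKM in *Nanos3-Cre* testes and 4.21 FPKM in controls (-0.83). *Stk31*, a germ cell protein kinase, had 0.846 FPKM in *Nanos3-Cre* testes and 2.01 FPKM in controls (-1.16). *Piwil2*, a PIWI protein, had 2.52 FPKM in *Nanos3-Cre* testes and 3.69 FPKM in controls (-0.53), a difference under 1.5-fold, and *Tdrd7* had 2.43 FPKM in *Nanos3-Cre* testes and 2.76 FPKM in controls (-0.18). The members of the list thus differed in size, and *Pld6*, the mitochondrial nuclease of piRNA biogenesis, stood on the other side with 1.78 FPKM in *Nanos3-Cre* testes and 1.51 FPKM in controls (0.22).

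Of 11 kept X-linked spermatogonial genes, 10 were lower (median -1.03). Of the 11, 9 were 1.5-fold lower (81.8%, against 3.46% of all kept genes), 3 of them with a *Nanos3-Cre* mean under 0.5 FPKM. *Nxf2* (chrX:134944526-134964754, minus strand), which encodes a nuclear RNA export factor found in male germ cells, had 2.82 FPKM in *Nanos3-Cre* testes and 6.45 FPKM in controls (-1.16). Its ratio was the sixth lowest of the 77 germ cell genes. *Mageb4* had 1.56 FPKM in *Nanos3-Cre* testes and 4.23 FPKM in controls (-1.39), *Taf7l*, a germ cell relative of a subunit of the TFIID complex, had 2.23 FPKM in *Nanos3-Cre* testes and 4.93 FPKM in controls (-1.11), and *Usp26*, a ubiquitin protease, had 1.42 FPKM in *Nanos3-Cre* testes and 3.19 FPKM in controls (-1.11). *Rhox10*, a homeobox gene of prospermatogonia, had 2.79 FPKM in *Nanos3-Cre* testes and 5.79 FPKM in controls (-1.03). Without *Nxf2* the other 10 had a median of -0.97. *Fthl17a* was the one member not lower, with 1.02 FPKM in *Nanos3-Cre* testes and 1.01 FPKM in controls (0.01). Other members of the *Nxf* family differed among themselves: the X-linked *Nxf3* had 1.28 FPKM in *Nanos3-Cre* testes and 2.10 FPKM in controls (-0.67), and *Nxf1*, the general mRNA export receptor used in every cell, had 34.8 FPKM in *Nanos3-Cre* testes and 34.5 FPKM in controls (0.01). Over 15 kept mRNA export factors the median was -0.06.

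Of 16 kept meiosis genes, 14 were lower (median -0.52) and 6 were 1.5-fold lower (37.5%, against 3.46% of all kept genes). Of the 6, 3 had a *Nanos3-Cre* mean under 0.5 FPKM, among them *Syce3* and *Sycp1*. The 6 include *Syce3*, *Sycp1* and *Tex12*, all parts of the synaptonemal complex. *Tex12* had 1.21 FPKM in *Nanos3-Cre* testes and 2.85 FPKM in controls (-1.17), *Syce3* 0.442 FPKM in *Nanos3-Cre* testes and 2.08 FPKM in controls (-2.01) and *Sycp1* 0.315 FPKM in *Nanos3-Cre* testes and 0.941 FPKM in controls (-1.33). The difference did not extend to all of them: *Dmc1*, the meiotic recombinase, had 1.44 FPKM in *Nanos3-Cre* testes and 1.61 FPKM in controls (-0.16), and *Syce2* had 6.52 FPKM in *Nanos3-Cre* testes and 7.37 FPKM in controls (-0.17). No meiotic cells are known at this age, and the values are low in both groups.

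Of 14 kept identity genes, 11 were lower (median -0.50) and 6 were 1.5-fold lower (42.9%, against 3.46% of all kept genes). *Dazl*, an RNA-binding protein of germ cells, had 6.86 FPKM in *Nanos3-Cre* testes and 12.9 FPKM in controls (-0.90). *Ddx4*, the germ cell RNA helicase VASA, had 2.05 FPKM in *Nanos3-Cre* testes and 3.98 FPKM in controls (-0.92), and *Dppa4* 2.66 FPKM in *Nanos3-Cre* testes and 4.89 FPKM in controls (-0.85). *Sall4*, a transcription factor of gonocytes and spermatogonia, had 2.45 FPKM in *Nanos3-Cre* testes and 3.55 FPKM in controls (-0.52). Factors of the undifferentiated state differed less: of 17 kept, 13 were lower, 3 were 1.5-fold lower (17.6%) and the median was -0.32. *Gfra1*, the receptor subunit for the niche factor GDNF, had 1.95 FPKM in *Nanos3-Cre* testes and 2.87 FPKM in controls (-0.53). *Ret*, its signalling partner, had 0.764 FPKM in *Nanos3-Cre* testes and 1.30 FPKM in controls (-0.70), and *Zbtb16* (PLZF) 1.55 FPKM in *Nanos3-Cre* testes and 2.15 FPKM in controls (-0.44). *Id4* had 4.68 FPKM in *Nanos3-Cre* testes and 4.77 FPKM in controls (-0.03), and *Etv5*, a GDNF target that Sertoli cells also use, 12.99 FPKM in *Nanos3-Cre* testes and 11.6 FPKM in controls (0.16). Of 8 kept differentiation genes, 5 were lower (median -0.17), but the 3 of them at 2 FPKM or more had a median of 0.12. *Sohlh1* and *Sohlh2*, a pair of spermatogonial transcription factors, had log2 ratios of -0.81 and -0.94, whereas *Kit* had -0.01, with 1.83 FPKM in *Nanos3-Cre* testes and 1.84 FPKM in controls.

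**Figure D2:**
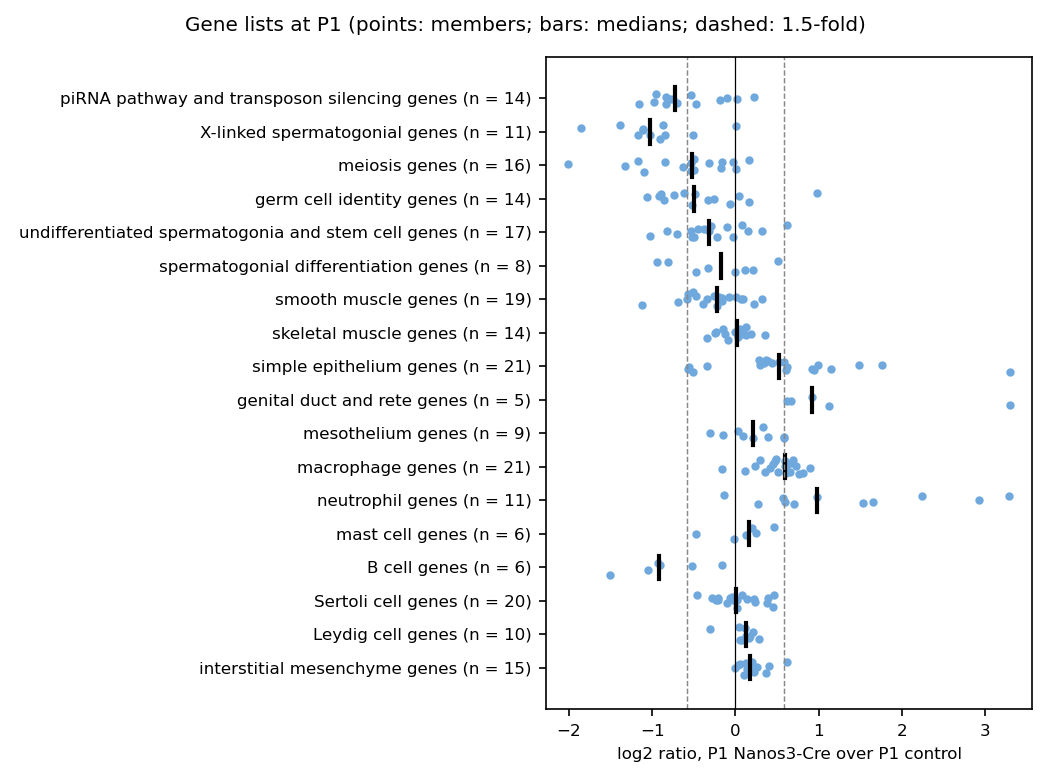
Log2 ratio of P1 Nanos3-Cre over P1 control for the kept members of 18 gene lists, with 1 point a gene and a black bar at the median of each list. The germ cell lists run from a median of -1.03 (X-linked) to -0.17 (differentiation), the Sertoli cell list lies at 0.01, and the macrophage, duct and neutrophil lists lie at 0.60, 0.92 and 0.99.

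The highest ratio among the germ cell genes was that of *Nanos3*, an RNA-binding protein of early germ cells and the locus whose promoter drives Cre. It had 2.11 FPKM in *Nanos3-Cre* testes and 1.03 FPKM in controls (log2 ratio 0.98), and *Cdh1* (E-cadherin, also an epithelial gene) was the other germ cell list member 1.5-fold higher, with 1.80 FPKM in *Nanos3-Cre* testes and 1.13 FPKM in controls (0.62). Whether transcripts of the Cre allele are counted in *Nanos3* was not tested.

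The same germ cell genes showed no shared direction in the P3 experiment, in which germ cells keep *Lrh1*. Of the 77, 43 were higher in *Dhh-Cre* testes and 34 lower (median log2 ratio 0.04). At P3 *Nxf2* had 17.0 FPKM in *Dhh-Cre* testes and 15.1 FPKM in controls, *Taf7l* had 22.6 FPKM in *Dhh-Cre* testes and 20.6 FPKM in controls, and *Dazl* had 43.5 FPKM in *Dhh-Cre* testes and 43.4 FPKM in controls. The P3 control mean was above the P1 control mean for 68 of the 77 genes. For *Nxf2* the P1 *Nanos3-Cre* mean of 2.82 FPKM was the lowest of the 4 groups. The days, the floxed genotypes and the library series differ between the experiments, so levels at P1 and P3 are only set side by side.

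**Figure D3:**
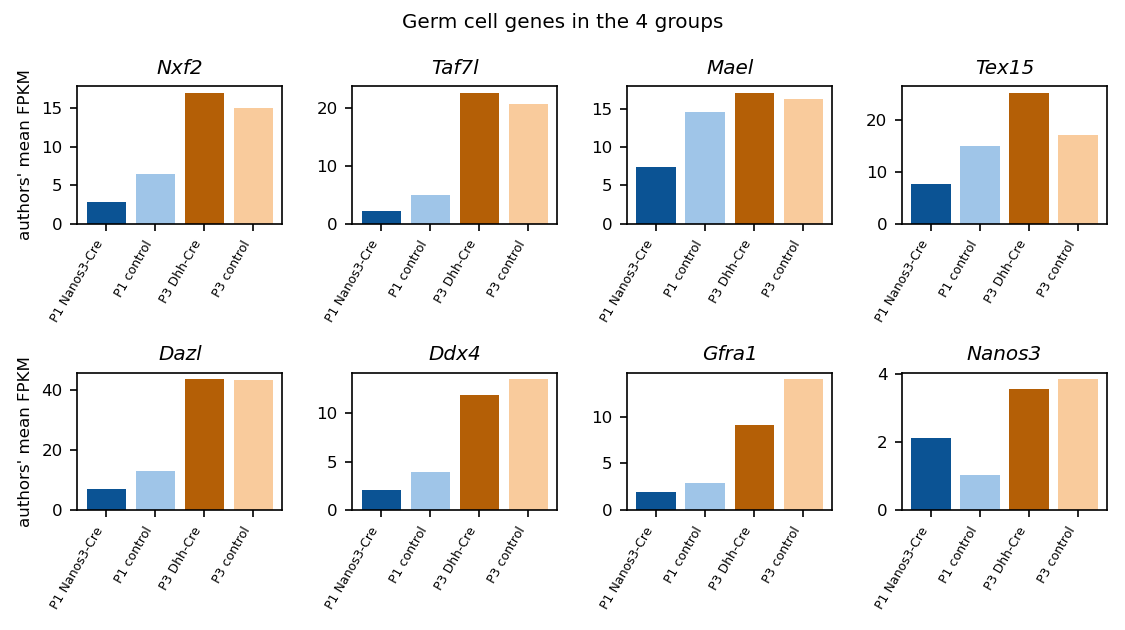
Mean FPKM of 8 germ cell genes in the 4 groups (bars from 0, 1 mean of 4 samples each, with no error bar because values per sample were not analysed). For 7 of the genes the P1 Nanos3-Cre bar is the lowest of the 4, and for *Nanos3* the lowest is the P1 control bar.

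The promoters of 4 lower germ cell genes are shown, chosen because they hold an E-box, a sequence bound by many basic helix-loop-helix factors. Not every lower germ cell gene has one: the window of *Dazl* holds none, nor does that of a second RefSeq start of *Nxf2*. The runs are RefSeq sequence of GRCm38.p6, from 250 bases before to 50 after the annotated start, printed 5′ to 3′ on the gene's strand. Capitals mark CACGTG, which reads the same on both strands. *Slc25a42* is given as a gene of the opposite direction, and as the windows were picked for the motif they make no comparison.
Nxf2, chrX:134964705-134965004 (- strand): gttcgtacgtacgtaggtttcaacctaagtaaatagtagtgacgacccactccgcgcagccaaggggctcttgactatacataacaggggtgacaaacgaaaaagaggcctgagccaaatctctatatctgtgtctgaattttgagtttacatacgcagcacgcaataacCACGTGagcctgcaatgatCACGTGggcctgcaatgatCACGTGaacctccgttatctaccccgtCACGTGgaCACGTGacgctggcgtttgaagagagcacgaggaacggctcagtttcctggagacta
Taf7l, chrX:134476441-134476740 (- strand): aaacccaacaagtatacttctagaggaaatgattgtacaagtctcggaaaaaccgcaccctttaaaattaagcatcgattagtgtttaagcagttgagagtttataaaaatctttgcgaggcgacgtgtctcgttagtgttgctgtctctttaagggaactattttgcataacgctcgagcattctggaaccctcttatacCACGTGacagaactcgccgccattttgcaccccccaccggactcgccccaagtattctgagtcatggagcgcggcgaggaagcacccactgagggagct
Mael, chr1:166238695-166238994 (- strand): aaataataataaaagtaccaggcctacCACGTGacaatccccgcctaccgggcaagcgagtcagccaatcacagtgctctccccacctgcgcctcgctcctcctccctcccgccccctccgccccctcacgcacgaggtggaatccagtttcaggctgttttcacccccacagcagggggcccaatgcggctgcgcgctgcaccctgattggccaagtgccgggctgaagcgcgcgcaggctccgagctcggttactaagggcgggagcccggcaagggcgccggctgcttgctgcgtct
Ddx4, chr13:112652261-112652560 (- strand): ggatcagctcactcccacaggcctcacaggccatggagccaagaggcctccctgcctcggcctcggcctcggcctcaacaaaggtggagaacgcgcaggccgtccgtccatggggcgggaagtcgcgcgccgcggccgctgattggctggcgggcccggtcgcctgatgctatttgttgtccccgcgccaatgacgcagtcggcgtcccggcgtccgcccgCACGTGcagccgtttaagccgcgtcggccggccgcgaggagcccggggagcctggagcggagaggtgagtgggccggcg
Slc25a42, chr8:70212232-70212531 (- strand): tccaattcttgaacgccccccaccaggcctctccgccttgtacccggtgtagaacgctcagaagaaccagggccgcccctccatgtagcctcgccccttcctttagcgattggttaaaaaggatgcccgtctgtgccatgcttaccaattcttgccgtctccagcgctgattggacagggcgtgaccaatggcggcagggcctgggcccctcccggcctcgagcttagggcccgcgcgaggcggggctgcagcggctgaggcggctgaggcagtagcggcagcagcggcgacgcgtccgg
The *Nxf2* window holds CACGTG 5 times and those of *Taf7l*, *Mael* and *Ddx4* hold it 1 time each, while that of *Slc25a42* has none. At 1 start or more, the sequence stood in 11.6% of 10324 kept protein-coding genes that had a promoter in the set, and in 8.09% of all 27025 genes of the set. It stood in 27 of 164 genes that were 1.5-fold lower (16.5%) and in 10 of 183 genes that were 1.5-fold higher (5.46%). At 2-fold it was in 8 of 45 lower genes, *Ccdc172*, *Ctag2l2*, *Nxf2*, *Stk31*, *Sycp1*, *Taf7l*, *Tex12* and *Topaz1*. The E-box was searched after the group means had been seen. The LRH1 and SF1 motif, TCAAGGTCA on either strand, was in 33 of the 10324 promoters (0.320%). Of the genes 1.5-fold higher the motif was in 1 of 183 (0.546%, *Prm2*), and of those 1.5-fold lower in 1 of 164 (0.610%, *Defb42*). At 2-fold the same single genes were 1 of 56 higher (1.79%) and 1 of 45 lower (2.22%), so each share rests on 1 gene. The printed promoters have none. Of all kept protein-coding genes, 0.604% were 2-fold higher and 0.405% were 2-fold lower, which are shares of genes and not of promoters with the motif. A match describes the letters in these windows only.

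By chromosome, the X held the most lower genes. Of 637 kept X-linked genes, 69 (10.8%) were 1.5-fold lower, against 2.13 to 5.98% on the 19 autosomes, and 20 (3.14%) were 1.5-fold higher. Among genes with a mean of 2 FPKM or more the share of X-linked genes 1.5-fold lower was 3.89%, against 1.08% of all genes. The median log2 ratio of X-linked genes was -0.03, the lowest of the chromosomes, against 0.02 for all kept genes. Of the 69 genes, 49 are protein-coding, and 21 belong to the X-linked spermatogonial list or to the *Mage*, *Xlr*, *Rhox* and related families, which were added after the means had been seen. In those families 26 genes were kept and 23 were lower (median -0.78). Of the 26, 16 were 1.5-fold lower (61.5%, against 3.46% of all kept genes). Of those 16, 7 had a *Nanos3-Cre* mean under 0.5 FPKM. *Magea8* had 1.80 FPKM in *Nanos3-Cre* testes and 3.84 FPKM in controls (-1.05), *Magea5* 0.720 FPKM in *Nanos3-Cre* testes and 1.77 FPKM in controls (-1.19) and *Xlr3c* 1.22 FPKM in *Nanos3-Cre* testes and 2.43 FPKM in controls (-0.94). *Xlr3b*, of the same family, had 2.91 FPKM in *Nanos3-Cre* testes and 1.94 FPKM in controls (0.56). Members of these families share sequence, so the values of single copies are uncertain. The germ cell difference was not confined to the X: the 66 autosomal germ cell genes had a median of -0.48, with 52 lower. Of the 66, 24 were 1.5-fold lower (36.4%, against 3.46% of all kept genes).

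**Figure D4:**
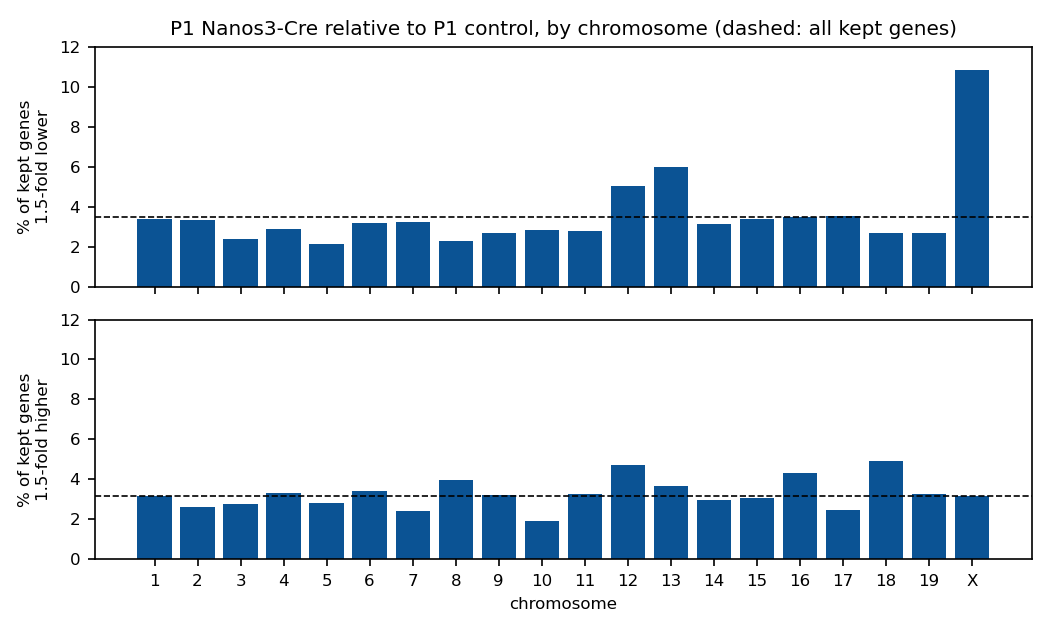
Share of kept genes on each chromosome that were 1.5-fold lower (top) or 1.5-fold higher (bottom) in P1 Nanos3-Cre testes than in P1 controls, in percent, with the share of all kept genes dashed (3.46% and 3.17%). The X stands out at 10.8% lower, and the share of X-linked genes that were higher is 3.14%.

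Muscle genes divided by type. Of 19 kept smooth muscle genes, 14 were lower in *Nanos3-Cre* testes, 2 of them 1.5-fold (10.5%, against 3.46% of all kept genes), with a median log2 ratio of -0.23. *Actg2*, an enteric smooth muscle actin, had 1.07 FPKM in *Nanos3-Cre* testes and 2.45 FPKM in controls (-1.12). *Myh11*, the smooth muscle myosin heavy chain, had 13.5 FPKM in *Nanos3-Cre* testes and 21.9 FPKM in controls (-0.69), and *Acta2*, the actin that marks peritubular cells, 70.0 FPKM in *Nanos3-Cre* testes and 97.0 FPKM in controls (-0.47). The transcription coactivator *Myocd* had 1.93 FPKM in *Nanos3-Cre* testes and 2.93 FPKM in controls (-0.58). Of these, only *Actg2* and *Myh11* were past 1.5-fold. *Des* (desmin) and *Pgm5* were on the other side: *Des* had 17.6 FPKM in *Nanos3-Cre* testes and 15.1 FPKM in controls (0.22) and *Pgm5* had 7.28 FPKM in *Nanos3-Cre* testes and 5.79 FPKM in controls (0.33). In the P3 experiment 14 of the 19 were higher in *Dhh-Cre* testes (median 0.25). Skeletal muscle genes were near their floor. Only 14 of 46 were kept, with 7 higher and 7 lower, none past 1.5-fold, and a median of 0.01. The defining myosins *Myh3* and *Myh8* had 0.269 and 0.242 FPKM in *Nanos3-Cre* testes and 0.394 and 0.347 FPKM in controls, and *Acta1* had 0.190 FPKM in *Nanos3-Cre* testes and 0.0730 FPKM in controls. Of 5 kept cardiac muscle genes, 4 were lower, none of them past 1.5-fold, and the median was -0.17. The 1 other, *Nppb*, was 1.5-fold higher (20%, against 3.17% of all kept genes). *Nppb* had 1.19 FPKM in *Nanos3-Cre* testes and 0.642 FPKM in controls (0.80).

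Epithelial genes were higher in *Nanos3-Cre* testes. Of 21 kept simple epithelium genes, 17 were higher and 10 were 1.5-fold higher (47.6%, against 3.17% of all kept genes), with a median log2 ratio of 0.53. Of the 10, 1 (*Cdh16*) had a control mean under the minimum. *Cldn6*, a claudin of tight junctions, had 3.44 FPKM in *Nanos3-Cre* testes and 0.942 FPKM in controls (1.76). *Prss8*, a membrane serine protease, had 3.76 FPKM in *Nanos3-Cre* testes and 1.28 FPKM in controls (1.48), *Cldn4* 1.29 FPKM in *Nanos3-Cre* testes and 0.528 FPKM in controls (1.15) and *Epcam*, an adhesion molecule of epithelia and also of spermatogonia, 2.46 FPKM in *Nanos3-Cre* testes and 1.57 FPKM in controls (0.61). The keratins *Krt8* and *Krt18*, which are more abundant here, had 15.96 and 24.6 FPKM in *Nanos3-Cre* testes and 12.3 and 16.3 FPKM in controls (0.37 and 0.59). The 4 members that were lower were *Esrp1*, *Spint1*, *Marveld2* and *Grhl2*, between -0.57 and -0.34. Of 15 genes for the genital ducts and the rete testis, 5 were kept. All 5 were 1.5-fold higher (100%, against 3.17% of all kept genes), of which *Cdh16* and *Gata3* passed the minimum only through the *Nanos3-Cre* mean. Of the same 5, *Krt7* and *Cdh16* are also among the 10 higher simple epithelium genes, so the 2 counts overlap. *Cdh16*, a cadherin of the kidney and of mesonephric ducts, had 2.24 FPKM in *Nanos3-Cre* testes and 0.138 FPKM in controls (3.30). *Pax8*, a transcription factor of these ducts and of the rete, had 1.54 FPKM in *Nanos3-Cre* testes and 0.651 FPKM in controls (1.13), *Emx2* 3.73 FPKM in *Nanos3-Cre* testes and 2.30 FPKM in controls (0.67) and *Gata3* 0.732 FPKM in *Nanos3-Cre* testes and 0.441 FPKM in controls (0.62). Under the minimum was *Crisp1*, which the epididymis makes, with 0.329 FPKM in *Nanos3-Cre* testes and 0.0280 FPKM in controls. Of 9 mesothelium genes, 7 were higher (median 0.21) and 1 was 1.5-fold higher (11.1%, against 3.17% of all kept genes). Among the 7 was *Krt19*, with 15.4 FPKM in *Nanos3-Cre* testes and 11.7 FPKM in controls (0.39).

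The duct genes were also higher in the P3 mutants. *Cdh16* had 16.7 FPKM in *Dhh-Cre* testes and 6.59 FPKM in P3 controls, and the simple epithelium list had a median of 1.07 there, with 17 of 21 genes higher. The P3 control means of all 5 duct genes were above those of the P1 controls. How much duct or rete tissue came with each gonad was not measured in these files, and its part in the values was not tested.

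*Hox* genes, which give cells their position along the body, differed by paralog group. This set was added after the means had been seen. Of the 17 kept genes of paralog groups 1 to 8, all 17 were higher in *Nanos3-Cre* testes and 11 were 1.5-fold higher (64.7%, against 3.17% of all kept genes), with a median of 0.70. Of the 11, *Hoxb8* and *Hoxa6* had control means under the minimum. Of the 8 kept genes of groups 9 to 13, 6 were higher, 2 were lower and none was past 1.5-fold (median 0.20). *Hoxa5* had 4.02 FPKM in *Nanos3-Cre* testes and 0.924 FPKM in controls (2.01), *Hoxb7* 4.85 FPKM in *Nanos3-Cre* testes and 1.44 FPKM in controls (1.68), *Hoxa7* 3.44 FPKM in *Nanos3-Cre* testes and 1.49 FPKM in controls (1.16) and *Hoxc8* 14.2 FPKM in *Nanos3-Cre* testes and 7.94 FPKM in controls (0.83). The more posterior *Hoxd9* and *Hoxd10* had 75.1 and 26.0 FPKM in *Nanos3-Cre* testes and 64.3 and 30.6 FPKM in controls (0.22 and -0.23). The *Hoxd* members of the anterior set were the least different: *Hoxd3*, *Hoxd4* and *Hoxd8* lay between 0.03 and 0.12. In the P3 experiment all 17 anterior and all 8 posterior genes were higher in *Dhh-Cre* testes (medians 0.94 and 1.45).

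Immune genes did not differ in one direction. Macrophage genes were higher in *Nanos3-Cre* testes in 20 of 21 kept cases, and 11 were 1.5-fold higher (52.4%, against 3.17% of all kept genes), with a median log2 ratio of 0.60. The complement genes *C1qa*, *C1qb* and *C1qc*, made by tissue macrophages, had 23.7, 23.9 and 18.0 FPKM in *Nanos3-Cre* testes and 15.4, 13.6 and 11.3 FPKM in controls. *Csf1r*, the receptor macrophages need, had 3.99 FPKM in *Nanos3-Cre* testes and 2.60 FPKM in controls (0.60), and *Lyz2*, lysozyme, 59.3 FPKM in *Nanos3-Cre* testes and 36.8 FPKM in controls (0.69). *Folr2*, a marker of resident macrophages, had 1.76 FPKM in *Nanos3-Cre* testes and 0.897 FPKM in controls (0.90). *Aif1* was the exception, with 1.45 FPKM in *Nanos3-Cre* testes and 1.63 FPKM in controls (-0.16). All 21 were also higher in *Dhh-Cre* testes than in P3 controls (median 0.90).

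Neutrophil genes differed more and less evenly. Of 11 kept, 10 were higher and 8 were 1.5-fold higher (72.7%, against 3.17% of all kept genes), with a median of 0.99. *Ngp* and *Camp*, granule proteins made in maturing neutrophils, had 19.6 and 2.92 FPKM in *Nanos3-Cre* testes and 2.50 and 0.536 FPKM in controls (2.92 and 2.25). *S100a8* and *S100a9*, the subunits of calprotectin, had 81.4 and 62.1 FPKM in *Nanos3-Cre* testes and 25.8 and 21.4 FPKM in controls (1.65 and 1.53). *Lcn2*, which neutrophils and also epithelia make, had 9.01 FPKM in *Nanos3-Cre* testes and 0.830 FPKM in controls (3.29). Of 9 listed neutrophil genes under the minimum, 5 were lower and 4 were higher in *Nanos3-Cre* testes. The higher ones were *Ly6g* (1.20), *Chil3* (1.49), *Ltf* (1.72) and *Fcnb* (2.10). Among the lower ones were the protease genes of earlier precursors, *Elane*, *Mpo*, *Prtn3* and *Ctsg*, between -0.54 (*Ctsg*) and -0.07 (*Mpo*). At P3, 9 of the same 11 genes were lower in *Dhh-Cre* testes than in controls (median -2.67): *Ngp* had 0.318 FPKM in *Dhh-Cre* testes and 15.5 FPKM in P3 controls. *S100a8* had 2.95 FPKM in *Dhh-Cre* testes and 28.8 FPKM in P3 controls.

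B cell genes were lower in *Nanos3-Cre* testes. All 6 kept members were lower and 4 were 1.5-fold lower (66.7%, against 3.46% of all kept genes), with a median of -0.91, and 1 of the 4 had a *Nanos3-Cre* mean under the minimum. *Igkc* and *Ighm*, constant regions of immunoglobulin chains, had 3.45 and 4.51 FPKM in *Nanos3-Cre* testes and 10.0 and 9.46 FPKM in controls (-1.51 and -1.05). *Cd79b*, a subunit of the B cell receptor, had 1.20 FPKM in *Nanos3-Cre* testes and 2.37 FPKM in controls (-0.92). *Rag1* and *Rag2*, which cut the receptor genes in precursors, were under the minimum and lower, with 0.223 and 0.0720 FPKM in *Nanos3-Cre* testes and 0.474 and 0.240 FPKM in controls. Only *Trac* and *Lck* of 16 T and NK cell genes were kept, and *Trac* had 2.07 FPKM in *Nanos3-Cre* testes and 4.21 FPKM in controls (-0.99). Of the other 14, under the minimum, 8 were lower, 5 were higher, among them *Trbc2* (0.49) and *Cd3g* (0.51), and 1 was equal. *Cd3e*, *Cd3d* and *Cd8a* were under 0.1 FPKM in both groups. Of 6 kept mast cell genes, *Tpsb2* had the largest mean, with 44.9 FPKM in *Nanos3-Cre* testes and 32.6 FPKM in controls (0.46), and none was past 1.5-fold. Of 15 kept interferon response genes, 12 were higher and 4 were 1.5-fold higher (26.7%, against 3.17% of all kept genes), *Ifit1*, *Cxcl10*, *Ifit3* and *Irf7*. Of these, *Ifit1* and *Cxcl10* had control means under the minimum. *Ifit1* had 1.48 FPKM in *Nanos3-Cre* testes and 0.305 FPKM in controls (1.96), whereas the more abundant *Bst2* had 39.2 FPKM in *Nanos3-Cre* testes and 51.4 FPKM in controls (-0.39).

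**Figure D5:**
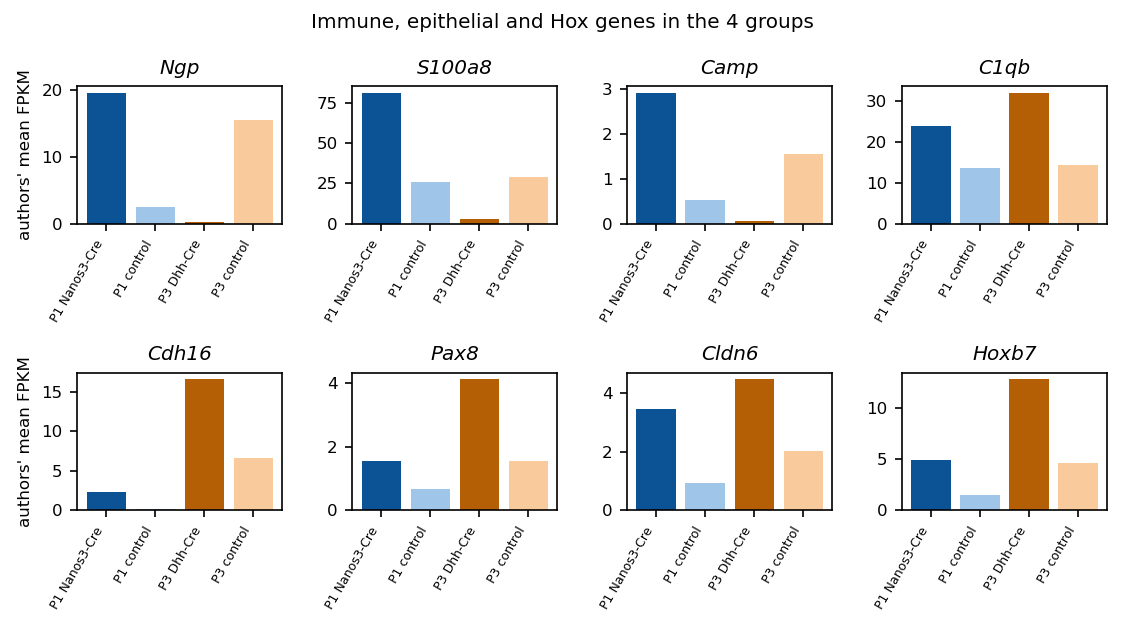
Mean FPKM of 4 immune genes (*Ngp*, *S100a8*, *Camp*, *C1qb*), 3 epithelial genes (*Cdh16*, *Pax8*, *Cldn6*) and *Hoxb7* in the 4 groups (bars from 0, 1 mean of 4 samples each, no error bar). Each gene is higher in P1 Nanos3-Cre than in P1 control testes, and at P3 the 3 neutrophil genes are lower in Dhh-Cre than in control testes while the other 5 are higher.

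Blood gave a split picture. The globins were lower, with *Hba-a1* at 175.7 FPKM in *Nanos3-Cre* testes and 245.7 FPKM in controls (-0.48) and *Hbb-bs* at 186.7 FPKM in *Nanos3-Cre* testes and 234.3 FPKM in controls (-0.33). *Slc4a1*, a membrane gene of red cell precursors, was higher, with 0.999 FPKM in *Nanos3-Cre* testes and 0.434 FPKM in controls (1.04). The erythroid factor *Klf1* had 0.778 FPKM in *Nanos3-Cre* testes and 0.461 FPKM in controls (0.65). White and red cell genes thus differed in several directions, and the part of the blood content of the gonads in these values was not tested.

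Genes of the main somatic cells of the testis were close in the group means. Of 20 Sertoli cell genes, 10 were higher and 10 lower, none past 1.5-fold, with a median log2 ratio of 0.01. *Sox9*, the Sertoli cell determinant, had 24.97 FPKM in *Nanos3-Cre* testes and 21.1 FPKM in controls (0.24). *Amh*, the anti-Müllerian hormone, had 330.1 FPKM in *Nanos3-Cre* testes and 239.5 FPKM in controls (0.46), and *Cst9* 321.7 FPKM in *Nanos3-Cre* testes and 391.2 FPKM in controls (-0.28). In the P3 experiment 18 of the 20 were lower in *Dhh-Cre* testes (median -1.53). Of 10 kept Leydig cell genes 9 were higher, none past 1.5-fold (median 0.12), and the exception was *Cyp17a1*, an enzyme of androgen synthesis, with 87.8 FPKM in *Nanos3-Cre* testes and 108.1 FPKM in controls (-0.30). Of 15 interstitial mesenchyme genes 14 were higher (median 0.17). Of 28 cell cycle genes, 25 were lower, none past 1.5-fold (median -0.11). The lists for DNA methylation, retinoic acid, stratified epithelium, antigen presentation, adrenal cortex, endothelium, nerve, adipocytes, the p53, heat shock and hypoxia responses, immediate early genes and imprinted genes had medians between -0.05 and 0.38, and of 9 platelet genes none was kept.

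*Slc25a42* and *Cbln1*, both on chromosome 8, had the higher mean in *Nanos3-Cre* testes. *Slc25a42* (chr8:70184340-70212305, minus strand), a mitochondrial carrier of coenzyme A, had 5.80 FPKM in *Nanos3-Cre* testes and 2.43 FPKM in controls (1.22). Over the 41 kept genes of the SLC25 family of mitochondrial carriers the median was 0.09. Of the 41, 2 were 1.5-fold higher (4.88%, against 3.17% of all kept genes), 1 of them with a control mean under the minimum. *Cbln1* (chr8:87468405-87472609), a secreted synapse organizer known from the cerebellum, had 106.8 FPKM in *Nanos3-Cre* testes and 49.8 FPKM in controls (1.10). In a list of cerebellins and their partners it was the 1 of 5 kept genes past 1.5-fold (20%, against 3.17% of all kept genes). The other 4 were lower, and the median of the list was -0.08. *Chodl* (chromosome 16), a membrane protein with a C-type lectin domain, had 0.833 FPKM in *Nanos3-Cre* testes and 0.149 FPKM in controls (1.91). Its mean of both groups was under the minimum, so it is not among the kept genes. These 3 genes had 2.75, 22.2 and 2.48 FPKM in *Dhh-Cre* testes and 3.54, 41.1 and 0.794 FPKM in P3 controls, given as *Slc25a42*, *Cbln1* and *Chodl*.

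*Slc25a42* and *Cbln1* lie on the same chromosome as *Nanos3* (chr8:84173731-84185217, minus strand). *Slc25a42* starts 13.99 Mb before it on the map and *Cbln1* 3.29 Mb after it. Within 20 Mb of *Nanos3*, 303 genes were kept, of which 11 (3.63%) were 1.5-fold higher and 4 (1.32%) were 1.5-fold lower, against 3.17% and 3.46% of all kept genes. Within 5 Mb, 7 of 104 (6.73%) were 1.5-fold higher, and with a minimum of 2 FPKM 1 of 79 (1.27%), against 1.22% of all genes at that minimum. Among the higher genes within 5 Mb were *Gm10645*, *Gm25110*, *Nanos3*, *Klf1*, *Gm2694* and *Cbln1*, and *Gm2694* is a long noncoding RNA gene whose span covers *Cbln1*. *Ccl17*, a chemokine gene 10.64 Mb after *Nanos3*, had 26.9 FPKM in *Nanos3-Cre* testes and 16.3 FPKM in controls (0.72). *Tmem59l*, 13.69 Mb before it, was the lowest within 20 Mb among protein-coding genes, with 0.536 FPKM in *Nanos3-Cre* testes and 1.39 FPKM in controls (-1.23). Within 20 Mb of *Nr5a2* on chromosome 1, 203 genes were kept, 4 of them (1.97%) 1.5-fold higher and 5 (2.46%) 1.5-fold lower. All mutants carried *Nanos3-Cre* and no control did, so the Cre allele and the deletion of *Lrh1* cannot be told apart in this design.

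Among genes at 2 FPKM or more, the 15 lowest and the 15 highest ratios were taken. Genes of small RNAs made 8 of the lowest and 7 of the highest. The lowest of all was the pseudogene *Ndufs5-ps*, with 3.74 FPKM in *Nanos3-Cre* testes and 23.3 FPKM in controls (-2.61), and pseudogene reads are hard to tell from those of the parent gene. The small RNA gene *Gm23713* was listed at 0 in controls and had 4.66 FPKM in *Nanos3-Cre* testes. Among protein-coding genes, a set chosen after the means had been seen, the 15 lowest included *4933402E13Rik*, an X-linked gene with 5.53 FPKM in *Nanos3-Cre* testes and 15.5 FPKM in controls (-1.47), *Mageb4*, *Nxf2*, *Tex12*, *Taf7l*, *Usp26*, *Rhox10*, *Mael* and *Tex15*. Also among them were *Tex101*, a germ cell surface glycoprotein, with 1.48 FPKM in *Nanos3-Cre* testes and 3.21 FPKM in controls (-1.07), *Gpat2*, which works in piRNA biogenesis, with 1.39 FPKM in *Nanos3-Cre* testes and 2.87 FPKM in controls (-0.99), and the defensin *Defb36*, with 16.2 FPKM in *Nanos3-Cre* testes and 32.0 FPKM in controls (-0.98). The 15 highest included *Lcn2*, *Ngp*, *Mal2* (3.67 FPKM in *Nanos3-Cre* testes and 0.795 FPKM in controls, 2.08), *Hoxa5*, *Cldn6*, *Hoxb7*, *S100a8*, *Prss8* and *Igfbp2*, an IGF-binding protein with 26.1 FPKM in *Nanos3-Cre* testes and 10.1 FPKM in controls (1.36).

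Genes of spermatids, cells that do not exist in the testis at this age, were also among the highest. *Prm1* and *Prm2*, the protamines that pack sperm DNA, had 10.4 and 11.6 FPKM in *Nanos3-Cre* testes and 3.33 and 4.24 FPKM in controls (1.62 and 1.44). *Tnp2*, a transition protein, had 10.4 FPKM in *Nanos3-Cre* testes and 4.08 FPKM in controls (1.33), and *Smcp*, a sperm mitochondrial protein, 2.95 FPKM in *Nanos3-Cre* testes and 1.18 FPKM in controls. In a list of 18 spermatid genes added after the means had been seen, 12 were kept, all 12 were higher in *Nanos3-Cre* testes and 7 were 1.5-fold higher (58.3%, against 3.17% of all kept genes), with a median of 0.65. Of the 7, 2 had control means under the minimum. At P3 the means were nearly the same in both groups, with *Prm1* at 12.5 FPKM in *Dhh-Cre* testes and 12.5 FPKM in controls. Their direction was opposite to that of the spermatogonial genes in the same P1 groups. Replication-dependent histone genes, whose mRNAs lack a poly(A) tail, were lower in 41 of 49 kept cases, 21 of them 1.5-fold (42.9%, against 3.46% of all kept genes), with a median of -0.40. Of the 21, 6 had a *Nanos3-Cre* mean under the minimum. Ribosomal protein genes had a median of 0.05 over 84 genes, and the mitochondrially encoded share of the summed FPKM was 18.4% in *Nanos3-Cre* testes and 19.2% in controls.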

How the data were processed

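mRNA was sequenced from whole testes of 4 P1 *Nanos3-Cre* mutants, 4 P1 controls, 4 P3 *Dhh-Cre* mutants and 4 P3 controls, grouped by their labels. Per the submitters' processing notes and the study's methods, reads of stranded poly(A) libraries were trimmed with Trim Galore 0.6.0 and cutadapt 1.18, checked with FastQC 0.11.8, mapped to GRCm38 (mm10) with STAR 2.7.2a and counted per gene on GENCODE M25. The authors deposited FPKM as 1 mean per group. How libraries were scaled for FPKM is not stated in the sources used here, and depth per sample is unknown. Tables of the authors' called genes, which hold their fold changes, adjusted p-values and mean counts, were not used.

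Genes with a mean of the 2 P1 groups of at least 0.5 FPKM were kept, and log2 ratios used a pseudocount of 0.1 FPKM. A planned limma test could not be fitted to means. Genes named are *Nr5a2*, *Nr5a1*, *Nanos3*, *Nxf2*, *Slc25a42*, *Chodl* and *Cbln1*, the 15 highest and lowest ratios at 2 FPKM or more, up to 4 members per list by ratio and 2 by mean, and genes past 1.5-fold within 20 Mb of *Nanos3*. Others were chosen after their values were seen. The comparison and the 45 gene lists were chosen with earlier results of these data known, and 4 lists were added after the means were seen. Positions are from GENCODE M21 (GRCm38), which matched 35864 of 35983 gene IDs, and promoters from RefSeq. The ratio and counts were tested on simulated data. Alternatives were other pseudocounts, minimums and scalings. Python 3 with pandas and matplotlib was used.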

Additional observations from a re-analysis of the deposited data

How the results depend on the processing

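The values are group means, so no library was left out, no depth is known and no difference was tested here. No paired analysis was possible because the table has 1 mean per group and no column for a replicate number. Of 436 alternative list medians, for 44 lists, 398 lay within 0.2 of the value given, 33 differed by more and 5 values of at least 0.1 in size turned round (the protein-coding restriction, the added lists and the splits of the germ cell genes were chosen after the data were seen).

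Counts of genes past a fold depended on low levels. The genes 1.5-fold higher and lower numbered 302 and 363 with a pseudocount of 0.5 FPKM, 195 and 237 with 1 FPKM, 2434 and 2826 with no minimum, 141 and 125 at 2 FPKM or more, 53 and 40 at 5 FPKM or more, and 256 and 215 among protein-coding genes. The genes 2-fold higher and lower numbered 102 and 103, 57 and 53, 892 and 1152, 45 and 42, 13 and 10, and 79 and 53 under the same settings. With the minimum on the control mean alone, which drops genes low in controls, 338 genes were 1.5-fold higher and 90 were 2-fold higher, and 352 were 2-fold lower.

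With a pseudocount of 0.5 FPKM the medians were -0.50 for piRNA, 0.68 for duct, 0.71 for neutrophil and -0.67 for B cell genes, and with 1 FPKM they were -0.38, 0.52, 0.53 and -0.51, with -0.30 for meiosis and -0.68 for X-linked spermatogonial genes. At 2 FPKM or more they were -0.73 for identity, 0.67 for duct (1 gene), 1.59 for neutrophil and -1.28 for B cell genes. At 5 FPKM or more, with 1 to 3 members each, they were -0.90 for identity, -0.97 for piRNA, -0.10 for meiosis, 1.65 for neutrophil and -1.28 for B cell genes, and no duct gene was left. With no minimum the duct median was 0.62, and with members in no other list it was 0.67. The list of undifferentiated spermatogonia turned to 0.12 at 5 FPKM (2 genes). The differentiation list turned to 0.12 at 2 and at 5 FPKM (3 genes and 1 gene), the interferon list to -0.26 at 5 FPKM (2 genes) and the histone list to 0.094 at 5 FPKM (5 genes). Equal sums or subtraction of the overall median turned round no list whose median was at least 0.1 in size.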
